A study of Homo sapiens with 10 samples.

Results

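RNA-seq counts of the 2 libraries labelled RNF2 shRNA2 were compared with those of the 2 Scramble libraries, across 18478 genes with enough counts to test. All 4 came from PC3, an established human prostate cancer cell line grown from a bone metastasis, and they are 4 of the 10 libraries of the series, which has 2 libraries in each of 5 groups. Per the labels, both groups carry a stably expressed short hairpin RNA, a non-targeting scramble in 1 and a hairpin named for RNF2 in the other. The labels give no hairpin sequence, no clone number, and no statement that the libraries of a group are separate cultures, so every p-value measures only the spread between these libraries, which may be technical. The 3 groups used for reference are RNF2 shRNA1, a stable line with the other RNF2 hairpin, and PC3 cells without a labelled hairpin that were given PRT4165, a small-molecule inhibitor of H2A ubiquitination, or the compound GW-516 for 48 hours. A vehicle-treated group is not among the samples used here, and all cells were PC3 grown in medium with fetal bovine serum. Per the file headers, all 10 libraries carry the short name MDV3, and the RNF2 shRNA2 libraries carry the number 20155 in the place where the other hairpin groups carry a hairpin name.

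RNF2 and RING1 are the ubiquitin ligases of Polycomb repressive complex 1 (PRC1), which places ubiquitin on histone H2A at silenced genes. Each works as a pair with a PCGF protein, and the partner helps to set the type of complex. BMI1 (PCGF4) and its close relative PCGF2 can form canonical PRC1. In it, CBX proteins read the histone H3 mark laid down by PRC2, and PHC proteins compact chromatin. The other PCGF proteins belong to variant complexes that hold RYBP or YAF2. BMI1 is best known for silencing the CDKN2A locus and for supporting self-renewal of stem and tumour cells.

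The labelled target was not reduced, and BMI1 was. In GRCh37 coordinates, RNF2 (ENSG00000121481.6, chromosome 1, 185014496 to 185071740, forward strand) had 30.6 and 28.3 CPM in the Scramble libraries and 33.5 and 35.3 CPM in the RNF2 shRNA2 libraries, where CPM is the gene's count scaled to library size with TMM factors. Both RNF2 shRNA2 libraries lay above both Scramble libraries, by 1.17-fold in the fit (log2 0.23, SE 0.052, adjusted p = 0.001 by edgeR's quasi-likelihood test with Benjamini-Hochberg adjustment). BMI1 (ENSG00000168283.9, chromosome 10, 22610140 to 22620413, forward strand) had 252 and 255 CPM in Scramble and 53.0 and 61.6 CPM in RNF2 shRNA2, 4.40-fold lower (log2 -2.14, SE 0.054, adjusted p = 9.8e-12). It was also lower than in each other group, the group means being 223 CPM with GW-516 and 251 CPM with PRT4165, and both RNF2 shRNA2 libraries were the lowest of the 10. In RNF2 shRNA1, RNF2 stood at 12.1 and 11.96 CPM and BMI1 at 232 and 230.0 CPM. Knockdown by the labelled hairpin is therefore not shown at the RNF2 mRNA, and protein was not measured. The group is described here by what was low in it, and "RNF2 shRNA2" is used only as the label of the libraries.

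The libraries were deep, with 65877850 to 108380198 counts, and the keratin and vimentin expression known of PC3 was present in all 4. Keratin 18 stood at 436 and 443 CPM in Scramble and 453 and 466 in RNF2 shRNA2, and vimentin at 1110 and 1115 and 1255 and 1304. Of 12 haematopoietic markers, all stayed below 1 CPM, and CD3E, MS4A1, HBA1 and HBB had no count. Their summed level ran from 0.532 to 0.907 CPM in Scramble and from 0.681 to 1.06 CPM in RNF2 shRNA2. Of 11 fibroblast and endothelial markers only COL1A1 and KDR reached 1 CPM, with sums of 31.8 to 32.5 CPM in Scramble and 18.7 to 21.1 CPM in RNF2 shRNA2, and of 10 neuroendocrine markers only ENO2 and SCG2, with sums of 13.4 to 14.6 and 7.72 to 7.75 CPM. These sums follow COL1A1 and ENO2, which fell. Of the scarcer markers KDR fell, while DCN, VWF and SCG2 were called higher, SCG2 from 0.391 and 0.532 to 0.701 and 1.04 CPM. The counting command in the file headers has no option for read pairs, so both mates of a pair can be counted. With counts halved for that, a chi-square divided by its degrees of freedom was 1.08 between the Scramble libraries, near sampling noise, and 6.11 between the RNF2 shRNA2 libraries. The Scramble libraries may therefore be technical repeats. With them summed to 1 sample, like the pairs of RNF2 shRNA1 and GW-516, 2206 genes were called higher and 2696 lower. In bulk RNA, fewer cells expressing a gene and less RNA per cell cannot be told apart. The part of the fibroblast, endothelial and neuroendocrine sums in the results below was not tested.

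RNF2 shRNA2 replicate 2 stood apart before any comparison. It had the largest total of the series (108380198 counts against 71352811 in replicate 1), and the file header marks it L005only. Of 12881 genes averaging 1 CPM or more, 40 differed at least 2-fold between the RNF2 shRNA2 libraries, against 1 of 12968 between the Scramble libraries. Of the 24 that were higher in replicate 2, 8 were antisense genes, 11 processed pseudogenes and 3 protein-coding genes. Of these 24, 11 shared exonic sequence with a gene on the opposite strand that was at least 10-fold more abundant. Of the 16 that were higher in replicate 1, 9 were processed pseudogenes, 5 protein-coding genes and 1 an antisense gene, and 0 faced such a gene. Processed pseudogenes were thus common on both sides. BEST1, which overlaps the ferritin heavy chain gene FTH1 on the other strand, went from 2.43 CPM in replicate 1 to 28.1 CPM in replicate 2, and RPL30-AS1, opposite RPL30, from 0.172 to 2.64 CPM. Neither passed the test against Scramble (adjusted p = 0.10 and 0.15).

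Against Scramble, 3895 genes passed an adjusted p of 0.05 as higher in RNF2 shRNA2, or 21.1% of those tested, and 3877 as lower, or 21.0%. These shares are the reference for all counts of list members given below. Large changes leaned downward, with 594 genes at least 2-fold lower (3.21%) and 305 at least 2-fold higher (1.65%). Without replicate 2 these were 611 and 258. Since all contrasts with Scramble share its 2 libraries, RNF2 shRNA2 was also tested against the groups that hold none of them. It was lower than RNF2 shRNA1 at 29.2% of genes and higher at 29.9%, lower than PRT4165 at 25.1% and higher at 26.3%, and lower than GW-516 at 29.3% and higher at 30.8%. Genes lower than in each of the 4 other groups numbered 1449 (7.84%) and genes higher than in each 1513 (8.19%). Of the 594 genes at least 2-fold lower than Scramble, 301 (50.7%) were lower than in every other group, and of the 305 at least 2-fold higher, 54 (17.7%) were higher than in every other group. Many of these genes were scarce. A mean of at least 1 CPM in RNF2 shRNA2 or Scramble was reached by 313 of the 594 and by only 83 of the 305.

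Among called PRC1 genes BMI1 had the largest change, and the next, CBX8, changed 1.54-fold. Of 30 subunit genes tested, 12 rose and 7 fell, with a median log2 of 0.10 against 0.009 over all genes. Among the PCGF partners, PCGF5 fell from 42.8 and 41.5 to 27.8 and 30.4 CPM (log2 -0.53, adjusted p = 1.3e-08) and PCGF3 from 56.7 and 58.4 to 46.7 and 43.9 CPM (log2 -0.35), and both were lower than in every other group. PCGF1 rose slightly (log2 0.18, adjusted p = 0.035) and PCGF6 stood at 21.9 and 22.7 CPM in Scramble and 21.9 and 22.7 CPM in RNF2 shRNA2 (log2 interval -0.12 to 0.12). Per kilobase of exon, BMI1 was the most abundant PCGF gene tested in Scramble, at 59.1 CPM per kb against 7.75 for PCGF3, 5.27 for PCGF1, 8.54 for PCGF6 and 5.12 for PCGF5. In RNF2 shRNA2 it stood at 13.4 CPM per kb, still the highest of the 5. PCGF2 matched no identifier of the files and is not analysed here. RING1, the paralogue of RNF2, stood at 13.6 and 14.0 and 16.2 and 13.8 CPM (log2 interval -0.038 to 0.27, adjusted p = 0.23), and was called higher without RNF2 shRNA2 replicate 2 (log2 0.22, adjusted p = 0.035).

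Of the CBX readers, CBX8 rose from 6.57 and 6.84 to 10.6 and 10.0 CPM, 1.54-fold higher (log2 0.62, SE 0.09, adjusted p = 4.1e-06), and CBX6 rose 1.17-fold, both above every other group. CBX7 fell from 9.71 and 9.26 to 7.31 and 7.57 CPM (log2 -0.35, adjusted p = 0.0023). Of the polymerising subunits, SCML2 rose (log2 0.50) and PHC1 fell (log2 -0.50), with PHC2 at log2 0.14 and SCML1 at 0.20, both called higher. Among variant-complex genes FBRSL1 (0.60), E2F6 (0.42), MGA (0.28) and DCAF7 (0.27) rose on the log2 scale, and RYBP (-0.15) and YAF2 (-0.15) fell. PRC2, which writes the mark that canonical PRC1 reads, was lower in 3 of its 6 core genes: EED (log2 -0.30), SUZ12 (-0.19) and RBBP7 (-0.17). EZH2, its main methyltransferase, stood at 75.9 and 75.3 CPM in Scramble and 79.9 and 80.6 CPM in RNF2 shRNA2 (log2 interval 0.0040 to 0.17, adjusted p = 0.086), and JARID2 was the accessory gene that rose (log2 0.18). Of 9 genes for enzymes and partners that remove ubiquitin from H2A, BAP1 fell from 108 and 105 to 72.9 and 72.8 CPM, 1.46-fold lower (log2 -0.54, SE 0.034, adjusted p = 3.7e-12), and was lower than in each other group. USP16, MYSM1 and USP3 rose (log2 0.29, 0.28 and 0.15), and USP22 fell (log2 -0.093).

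**Figure D1:**
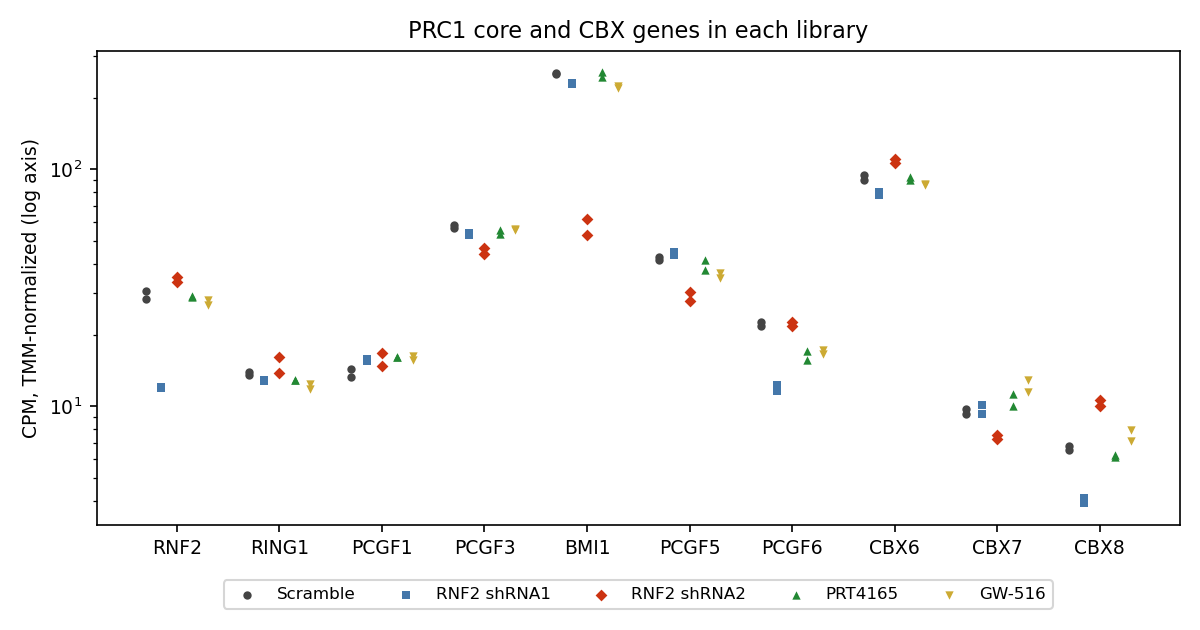
Level of PRC1 ligase, PCGF and CBX genes in each of the 10 libraries, in TMM-normalized CPM on a log axis, with 1 point per library and 2 per group. BMI1 stands at 53.0 and 61.6 CPM in the RNF2 shRNA2 libraries, below all other libraries, and RNF2 is low in RNF2 shRNA1 and not in RNF2 shRNA2.

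Cell-cycle inhibitor genes moved in both directions, and the called HOX genes fell except for the scarce HOXB9. The CDKN2A locus and HOX genes are textbook Polycomb targets. CDKN2A, which encodes p16INK4A and ARF, stood at 113 and 115 CPM in Scramble and at 124 and 84.8 CPM in RNF2 shRNA2 (log2 -0.14, interval -0.61 to 0.34, adjusted p = 0.63). The RNF2 shRNA2 libraries lay on both sides of the Scramble libraries, with replicate 2 the lower, and without replicate 1 the gene was called lower (log2 -0.43, adjusted p = 0.0072). Its neighbour CDKN2B, which encodes p15, rose from 65.7 and 64.7 to 96.6 and 89.9 CPM, 1.43-fold higher (log2 0.52, SE 0.038, adjusted p = 7.7e-11). CDKN1A, which encodes p21, rose 1.30-fold (adjusted p = 1.1e-05), while CDKN1B fell (log2 -0.20), CDKN2C fell from 65.8 and 68.0 to 45.8 and 45.1 CPM, and CDKN1C fell from 1.81 and 1.61 to 0.372 and 0.392 CPM, 4.46-fold lower (log2 -2.16, SE 0.25, adjusted p = 1.5e-07). CDKN1B and CDKN1C were lower than in each other group. Of 39 HOX genes, 18 were tested, 5 fell and 1 rose, beside 21.0% lower and 21.1% higher over all genes. The 5 were HOXA13, from 60.3 and 58.4 to 32.0 and 36.2 CPM, HOXB13, a prostate lineage factor, from 487 and 478 to 340.4 and 354 CPM, HOXA10 (log2 -0.53), HOXA11 (-0.39) and HOXA4 (-1.49). HOXB9, the gene that rose, stood at no more than 0.513 CPM and was no longer called without any 1 of the 4 libraries (adjusted p from 0.053 to 0.22).

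The 15 largest decreases ran from 5.63-fold to 40.0-fold, with adjusted p-values up to 1.2e-05, and fell into sets that differ in what the other groups show. TMPRSS15 (ENSG00000154646.4, chromosome 21, 19641433 to 19858197, reverse strand, GRCh37), which encodes enteropeptidase, the membrane serine protease that activates trypsinogen, had the largest fall. It stood at 11 and 10.9 CPM in Scramble and 0.343 and 0.224 CPM in RNF2 shRNA2, 40.0-fold lower (log2 -5.32, SE 0.17, adjusted p = 2.4e-17). It stood at 7.30 and 7.19 CPM in RNF2 shRNA1, 0.542 and 0.389 CPM with PRT4165 and 0.375 and 0.332 CPM with GW-516. The 4 Scramble and RNF2 shRNA1 libraries were the high ones. RNF2 shRNA2 was lower than PRT4165 (log2 -0.78, adjusted p = 0.018), and its difference from GW-516 was log2 -0.37 with an interval of -0.95 to 0.20. The compound groups were low as well for PWWP3B, a PWWP-domain gene on chromosome X (19.6 and 20.5 CPM in Scramble, 2.26 and 2.31 in RNF2 shRNA2, 2.80 and 2.19 with PRT4165 and 2.13 and 2.37 with GW-516), and for pleiotrophin (PTN), a heparin-binding growth factor (6.25 and 6.98, 1.03 and 1.05, 1.29 and 1.39 and 0.818 and 0.888 CPM in the same order). CDH11, a mesenchymal cadherin, stood at 5.65 and 4.41 CPM in Scramble alone, 0.886 and 0.728 in RNF2 shRNA2, 1.03 and 1.15 in RNF2 shRNA1, 0.391 and 0.548 with PRT4165 and 0.613 and 0.639 with GW-516. For all 4 genes both Scramble libraries lay above the 8 others. For TMPRSS15, PWWP3B and PTN, RNF2 shRNA1 lay between Scramble and the rest.

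Another set was lower in both lines with an RNF2-labelled hairpin than with either compound. LCN2, lipocalin 2, which withholds iron from bacteria by binding siderophores, stood at 106 and 109 CPM in Scramble and 8.61 and 6.96 CPM in RNF2 shRNA2, 14.0-fold lower (log2 -3.81, SE 0.061, adjusted p = 3.2e-18). In RNF2 shRNA1 it stood at 8.14 and 8.93 CPM, and the difference between the hairpin groups had a log2 interval of -0.32 to 0.012. With PRT4165 and GW-516 it stood at 191 and 193 and 152 and 148 CPM. PI3, the elastase inhibitor elafin, fell from 155 and 154 to 31.3 and 23.4 CPM and stood at 19.2 and 18.5 CPM in RNF2 shRNA1. The long non-coding RNA LINC02015 fell from 12.9 and 12.8 to 0.744 and 0.980 CPM and stood at 0.557 and 0.312 CPM in RNF2 shRNA1.

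The other 8 of the 15 were lower in RNF2 shRNA2 than in each of the 4 other groups, of which Scramble was used to choose them, as were 301 (50.7%) of the 594 genes at least 2-fold lower. TRIM31, an E3 ubiquitin ligase, stood at 17.6 and 16.9 CPM in Scramble and 0.458 and 0.700 CPM in RNF2 shRNA2, 28.6-fold lower (log2 -4.84, SE 0.12, adjusted p = 2.3e-19), with 3.07 and 3.40 CPM in RNF2 shRNA1 and 16.7 and 16.2 CPM with PRT4165. Both RNF2 shRNA2 libraries were below all 8 others. CYB5R2, a cytochrome b5 reductase, stood at 68.1 and 66.4 CPM in Scramble, 11.9 and 11.8 in RNF2 shRNA2, 27.2 and 27.3 in RNF2 shRNA1, 86.9 and 82.1 with PRT4165 and 80.1 and 78.3 with GW-516. It was 5.67-fold lower (log2 -2.50, SE 0.047, adjusted p = 7.5e-22) than in Scramble and 2.30-fold lower than in RNF2 shRNA1. The epithelial tetraspan EMP2 fell from 7.03 and 6.89 to 0.586 and 0.765 CPM, the receptor phosphatase PTPRT from 10.6 and 11.4 to 0.658 and 1.11 CPM, and the guanine nucleotide exchange factor ARHGEF4 from 8.25 and 7.18 to 0.886 and 0.830 CPM. STUM fell from 8.04 and 7.92 to 0.844 and 0.802 CPM and paralemmin (PALM) from 6.34 and 5.93 to 1.06 and 1.11 CPM. The eighth, COL6A2, is described with the collagens.

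The 15 largest increases were smaller, from 2.24-fold to 3.58-fold, and 6 of them were higher than in each other group, of which Scramble was used to choose them, beside 54 (17.7%) of the 305 genes at least 2-fold higher. FGF1, a fibroblast growth factor that binds all FGF receptors, led with 2.26 and 2.69 CPM in Scramble and 8.79 and 8.89 CPM in RNF2 shRNA2, 3.58-fold higher (log2 1.84, SE 0.11, adjusted p = 7.0e-13), and stood higher still with GW-516 (12.2 and 11.1 CPM). DHRS2, a mitochondrial dehydrogenase-reductase, stood at 3.04 and 2.71 CPM in Scramble, 10.0 and 9.95 in RNF2 shRNA2 and 2.97 to 6.16 CPM as means of the 3 other groups, so that both RNF2 shRNA2 libraries were the highest. UBE2QL1, a ubiquitin-conjugating enzyme homologue, rose from 3.52 and 3.88 to 10.2 and 8.73 CPM, aldehyde oxidase AOX1 from 8.99 and 9.27 to 22.6 and 22.9 CPM, and TNRC6C, a subunit of the microRNA silencing complex, from 2.57 and 2.42 to 5.52 and 5.96 CPM. PRR22 (9.22 and 8.12 CPM in RNF2 shRNA2) and FGF5 complete the 6. Others were shared with another group: PAPPA2, a protease of IGF binding proteins, stood at 12.8 and 13.9 CPM in RNF2 shRNA2 and 14.8 and 14.9 CPM in RNF2 shRNA1, and the sodium channel SCN3A at 8.22 and 8.36 and 7.78 and 8.14 CPM. The receptor kinase ALK and TMEM154 were higher in RNF2 shRNA1 (11.97 and 11.2 and 41.5 and 41.1 CPM) than in RNF2 shRNA2 (8.49 and 8.76 and 32.0 and 31.4 CPM). CPA4, a carboxypeptidase, rose from 2.46 and 2.33 to 7.86 and 7.80 CPM but stood at 18.9 and 20.3 CPM with PRT4165 and 72.7 and 71.8 CPM with GW-516. FAM133A rose 2.61-fold and the sialyltransferase ST6GAL2 2.38-fold.

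**Figure D2:**
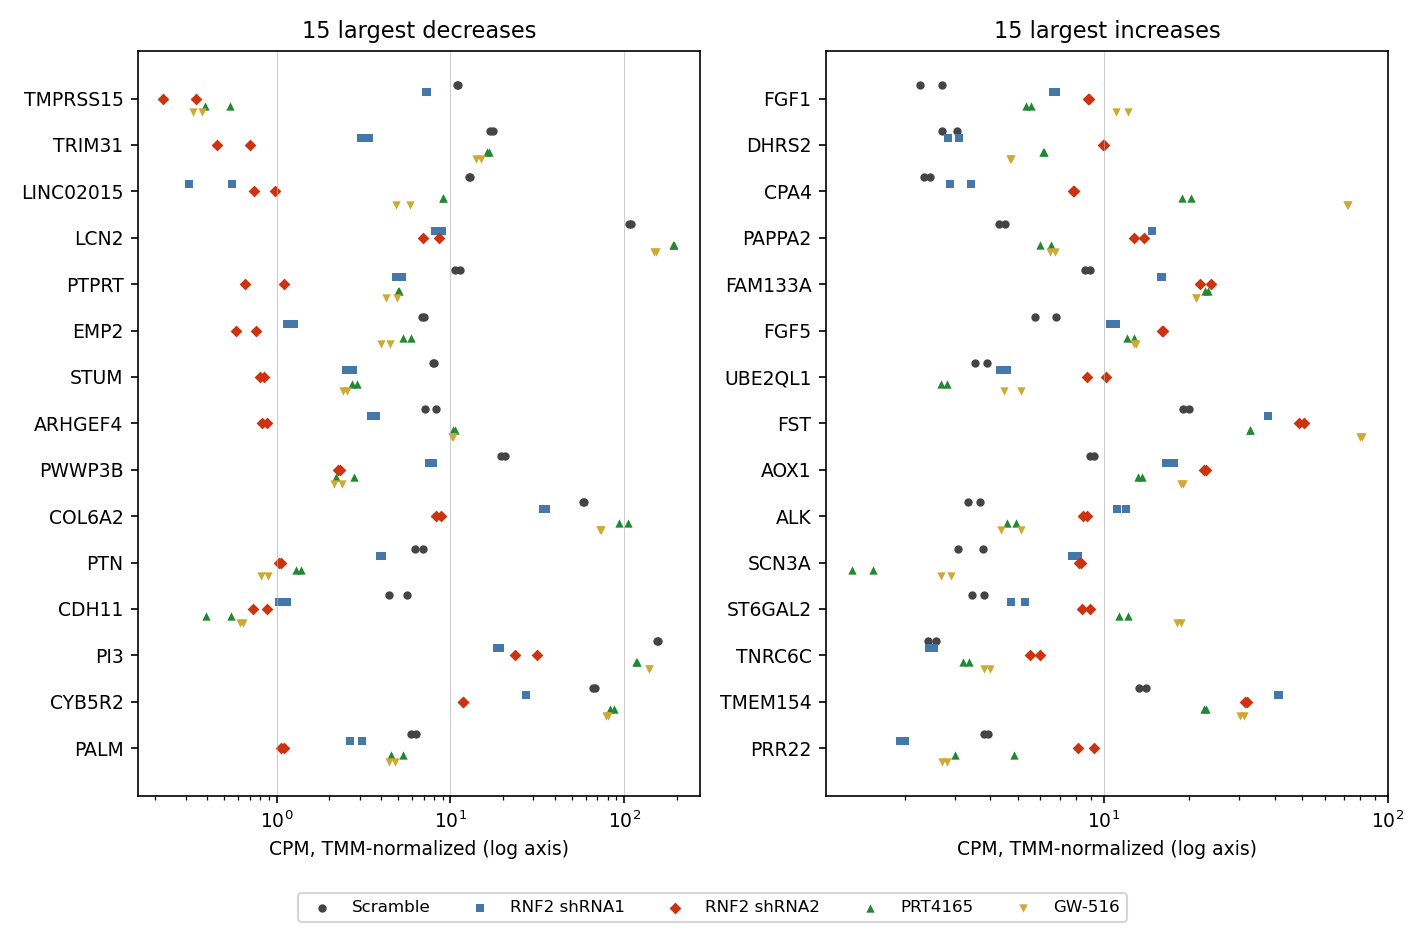
Level in each library, in TMM-normalized CPM on log axes, of the 15 genes with the largest fall (left) and the largest rise (right) in RNF2 shRNA2 against Scramble, with 2 points per group. TMPRSS15, PWWP3B and PTN are low with PRT4165 and GW-516 as well as in RNF2 shRNA2, LCN2 and PI3 are low in both hairpin groups, and TRIM31, CYB5R2 and COL6A2 are lowest in RNF2 shRNA2.

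Class I antigen presentation was lower in RNF2 shRNA2 at 5 of 7 heavy and light chain genes, the inducible proteasome subunits PSMB8 and PSMB9, and TAP1. Class I molecules show peptides cut by the proteasome to CD8 T cells; PSMB8, PSMB9 and PSMB10 are the catalytic subunits that interferon induces, and TAP1 and TAP2 carry the peptides into the endoplasmic reticulum. PSMB9 and TAP1 lie head to head, so their start regions are shown. The 250 bases before the PSMB9 start and before the first of the TAP1 starts in RefSeq (GRCh38.p14) are PSMB9 on the forward strand at chr6:32853942-32854191 and TAP1 on the reverse strand at chr6:32853705-32853954, the starts being 488 bases apart. B2M, on the forward strand at chr15:44711267-44711516, encodes the light chain and is shown for contrast. Capitals mark matches on either strand to the core of the interferon-stimulated response element (GAAA, any 2 bases, GAAA), of which overlapping matches run together.
PSMB9: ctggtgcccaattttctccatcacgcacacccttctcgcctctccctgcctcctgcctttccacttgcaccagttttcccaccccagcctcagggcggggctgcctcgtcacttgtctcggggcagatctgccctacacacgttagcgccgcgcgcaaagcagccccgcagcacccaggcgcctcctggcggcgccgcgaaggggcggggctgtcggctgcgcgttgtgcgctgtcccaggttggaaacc
TAP1: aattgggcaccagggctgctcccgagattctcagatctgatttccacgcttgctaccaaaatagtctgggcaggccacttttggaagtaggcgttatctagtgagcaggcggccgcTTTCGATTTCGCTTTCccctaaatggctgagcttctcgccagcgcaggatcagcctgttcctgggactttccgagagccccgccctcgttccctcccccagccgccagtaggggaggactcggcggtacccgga
B2M: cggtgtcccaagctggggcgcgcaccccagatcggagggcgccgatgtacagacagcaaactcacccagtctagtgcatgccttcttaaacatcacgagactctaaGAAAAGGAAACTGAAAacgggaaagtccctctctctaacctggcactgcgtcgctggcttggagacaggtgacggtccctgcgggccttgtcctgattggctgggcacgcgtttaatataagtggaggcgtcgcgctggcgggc
The core was found in 3.02% of all 34961 RefSeq start regions of this length, and a second interferon motif, TTCNNNGAA, in 6.57%. The TAP1 region held 2 overlapping core matches, beginning 134 and 128 bases before its start, and the B2M region 2, beginning 144 and 138 bases before. The PSMB9 region held neither motif within its 250 bases, and the TAP1 matches lie between the starts of both genes. Before a second TAP1 start, at chr6:32852762-32853011, there was no core match and 1 match to TTCNNNGAA. The regions of TAP2 and PSMB10, which were not called, each held 1 core match, and those of HLA-B, HLA-C and PSMB8, which fell, held no core match. Before a second PSMB8 start, at chr6:32844048-32844297, there was no core match and 1 match to TTCNNNGAA. A match describes the letters of this window and is not a measured binding site.

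Both genes of this head-to-head pair fell. PSMB9 stood at 3.38 and 3.47 CPM in Scramble and 0.772 and 0.690 CPM in RNF2 shRNA2, 4.71-fold lower (log2 -2.23, SE 0.18, adjusted p = 3.8e-10). Its values in the other groups lay between, at 2.46 and 2.37 CPM in RNF2 shRNA1, 1.56 and 1.21 with PRT4165 and 1.48 and 1.255 with GW-516. TAP1 stood at 7.98 and 8.24 CPM in Scramble and 4.60 and 4.51 CPM in RNF2 shRNA2, 1.78-fold lower (log2 -0.83, SE 0.092, adjusted p = 6.4e-08), and at 7.83 and 8.14, 6.51 and 6.91 and 7.61 and 7.49 CPM in the other groups. B2M, whose region also holds the core, stood at 556 and 556 CPM in Scramble and 571 and 531 CPM in RNF2 shRNA2 (log2 interval -0.072 to 0.045). For all 3 genes the Scramble libraries were closely alike, and for PSMB9 and TAP1 both RNF2 shRNA2 libraries were the lowest of the 10.

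The other members moved with these only in part. HLA-B fell from 21.9 and 20.9 to 7.36 and 7.24 CPM, 2.94-fold lower (log2 -1.55, SE 0.075, adjusted p = 2.6e-14), and HLA-C from 6.27 and 6.89 to 3.12 and 2.42 CPM, 2.41-fold lower. HLA-E fell 1.37-fold and HLA-G 1.31-fold. PSMB8 fell from 10.7 and 10.49 to 4.38 and 3.94 CPM, 2.56-fold lower, while PSMB10 stood at 3.11 and 3.45 and 3.16 and 3.33 CPM (log2 interval -0.30 to 0.27) and TAP2 at 1.28 and 1.29 and 1.03 and 1.45 CPM. The aminopeptidase ERAP1 fell (log2 -0.30) and the chaperone tapasin (TAPBP) rose (0.26). In all, 13 of 28 genes fell and 5 rose (2 with near-identical libraries summed), with a median log2 of -0.087. Among them HLA-B, HLA-C, HLA-E, PSMB8, PSMB9, TAP1 and ERAP1 were lower than in each of the 4 other groups. HLA genes have near-identical copies, and the counting command in the file headers has no option for reads that match several places, so their values are uncertain.

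Of 8 transcriptional regulators of the class I genes 4 rose and 1 fell. NLRC5, the class I transactivator, rose from 5.12 and 5.72 to 7.96 and 8.26 CPM, 1.499-fold higher (log2 0.58, SE 0.11, adjusted p = 7.1e-05), above every other group, and IRF1 rose 1.23-fold. IRF2 was the one that fell (log2 -0.31). Interferon-stimulated genes outside the class I list leaned upward, with 19 of 40 rising and 5 falling (median log2 0.17). The glycoprotein LGALS3BP rose from 145 and 148 to 269.9 and 289.5 CPM, 1.91-fold higher (log2 0.94, SE 0.036, adjusted p = 1.1e-15). The antiviral RNA-binding genes IFIT2, IFIT3 and IFIT1 rose 1.51-fold, 1.44-fold and 1.41-fold, ISG20 1.63-fold and TRIM25 1.246-fold, the IFIT genes being similar copies. UBE2L6, which conjugates ISG15, fell from 51.0 and 53.2 to 35.5 and 34.9 CPM, DDX60 from 85.8 and 86.0 to 63.1 and 65.3 CPM, and PARP14 1.23-fold. Of the 13 standard proteasome genes tested, 5 fell and none rose, with a median log2 of -0.053 (2 fell without either Scramble library or RNF2 shRNA2 replicate 2, and 9 without RNF2 shRNA2 replicate 1).

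**Figure D3:**
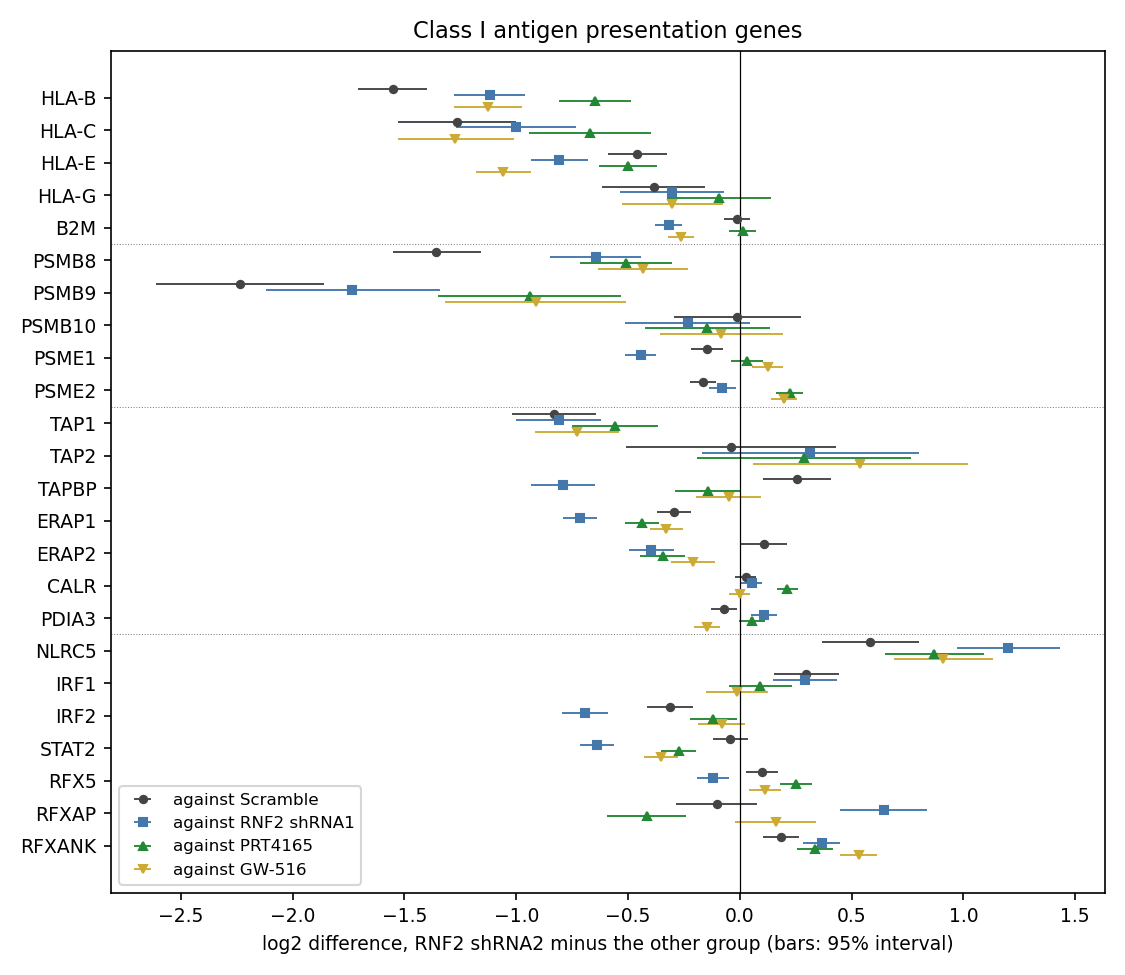
Log2 difference of RNF2 shRNA2 from each other group, with 95% intervals, for class I genes in 4 blocks from top to bottom: heavy and light chains, immunoproteasome, peptide loading, and regulators. PSMB9, HLA-B, PSMB8, HLA-C and TAP1 lie left of 0 in all 4 contrasts and NLRC5 lies right of 0 in all 4.

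Neighbouring genes were described by the running median over 15 consecutive tested genes, with no test. The lowest run lay on chromosome 22 from 39214457 to 39781593 (GRCh37), with a median log2 of -0.86 and 11 of 15 genes called lower. It holds the APOBEC3 cytidine deaminases, which edit viral and cellular DNA, and CBX7. APOBEC3C fell from 32.5 and 34.7 to 13.8 and 13.4 CPM, 2.48-fold lower (log2 -1.31, SE 0.05, adjusted p = 3.9e-16), and APOBEC3B from 16.04 and 14.4 to 9.09 and 9.30 CPM, 1.66-fold lower. With PRT4165 and GW-516 APOBEC3C stood at 78.0 and 74.2 and 84.9 and 84.8 CPM, and in RNF2 shRNA1 at 24.1 and 23.9 CPM, so RNF2 shRNA2 was the lowest group. APOBEC3G stood at 1.38 and 1.09 CPM in Scramble, 0.515 and 0.448 in RNF2 shRNA2 and 9.56 and 9.08 with GW-516. The run was lower against the other groups too, with medians of -0.54 against RNF2 shRNA1, -1.31 against PRT4165 and -1.52 against GW-516. CBX6, inside the same run, rose (log2 0.22). The APOBEC3 genes, like others named here for their position in a run, were chosen after their values were seen, and several overlap or resemble one another.

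Other low runs lay on chromosome 19 from 49521504 to 49921251 (median -0.83, 6 of 15 lower), on chromosome 9 from 139756571 to 139981121 (-0.77, with -0.077, -0.18 and 0.088 against RNF2 shRNA1, PRT4165 and GW-516), on chromosome 1 from 201924619 to 202844369, around the epithelial factor gene ELF3 (-0.69), and on chromosome 12 from 46123448 to 48176536, around the amino acid transporter genes SLC38A1 and SLC38A2 (-0.62, 10 of 15 lower). Against the 3 other groups the medians of the chromosome 19, 1 and 12 runs lay between -0.98 and -0.35. The highest 2 lay in the histone clusters of chromosome 6, at 27371789 to 28061442 (0.79, only 3 of 15 higher and 1 lower) and 26031817 to 26225844 (0.62, 9 of 15 higher). There the medians against GW-516 were -0.87 and -1.53 and against RNF2 shRNA1 -0.18 and -0.65, so these runs stood lower in RNF2 shRNA2 than in those groups. The third lay on chromosome X from 151334706 to 152990152, in a region of MAGE-A cancer-testis genes, with a median of 0.59, 10 of 15 genes higher, and medians of 0.57, 0.40 and 0.41 against RNF2 shRNA1, PRT4165 and GW-516.

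Chromosome X as a whole stood higher. Of its 583 tested genes, 231 (39.6%) were called higher and 74 (12.7%) lower, with a median log2 of 0.20 against Scramble, 0.26 against RNF2 shRNA1, 0.094 against PRT4165 and 0.050 against GW-516. On the other chromosomes the median against Scramble ran from -0.074 (chromosome 9) to 0.093 (chromosome 2). Chromosome 3 had 323 genes lower and 141 higher of 1075, and chromosome 2 had 167 lower and 400 higher of 1255. The medians of chromosome 2 were 0.028 against RNF2 shRNA1, 0.021 against PRT4165 and 0.018 against GW-516. Chromosomes 2, 5, 7, 8 and 21 also lay above 0 against all 4 groups. Chromosome 21 was above X against PRT4165 (0.13) and against GW-516 (0.097). Against GW-516, chromosomes 5 (0.090), 13 (0.066) and 4 (0.060) were also above X, and chromosome 6 equalled it (0.050). Copy number was not measured, and its part in these medians was not tested.

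**Figure D4:**
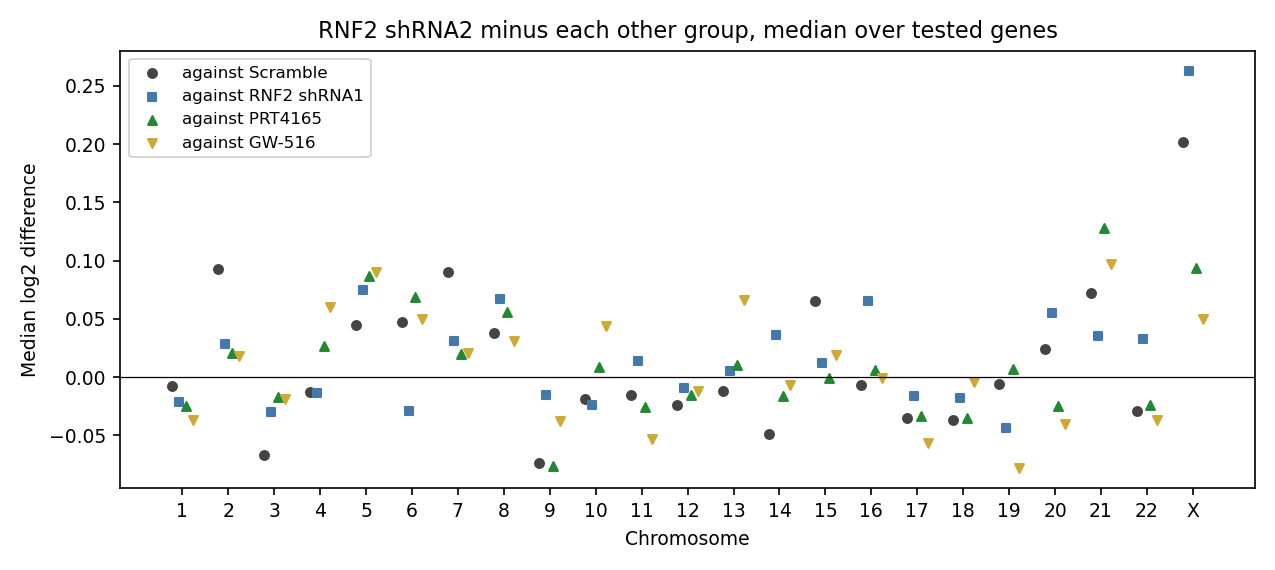
Median log2 difference of RNF2 shRNA2 from each other group over the tested genes of each chromosome. Chromosome X lies above 0 against all 4 groups, at 0.20 against Scramble and 0.050 against GW-516, as do chromosomes 2, 5, 7, 8 and 21, and it is the highest against Scramble and RNF2 shRNA1 only.

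Collagen VI, a beaded-filament collagen found around cells, held the 2 collagen genes that were at least 2-fold lower. COL6A1 (ENSG00000142156.10, chromosome 21, 47401651 to 47424964, forward strand) and COL6A2 (ENSG00000142173.10, chromosome 21, 47518011 to 47552763, forward strand) are neighbours (GRCh37) that encode chains of the same trimer. COL6A1 stood at 257 and 253 CPM in Scramble and 92.1 and 91.7 CPM in RNF2 shRNA2, 2.77-fold lower (log2 -1.47, SE 0.053, adjusted p = 1.1e-09), and COL6A2 at 58.9 and 58.1 and 8.24 and 8.80 CPM, 6.84-fold lower (log2 -2.77, SE 0.057, adjusted p = 1.3e-20). In RNF2 shRNA1 COL6A2 stood at 35.6 and 33.9 CPM, with PRT4165 at 93.0 and 104 and with GW-516 at 72.6 and 73.0 CPM, all above RNF2 shRNA2. The third chain, COL6A3, was scarce and fell 1.34-fold (adjusted p = 0.014). Fibrillar COL1A1 fell from 26.3 and 27.1 to 15.2 and 16.7 CPM and short-chain COL8A1 from 92.5 and 94.7 to 57.5 and 59.4 CPM. The basement-membrane chains COL4A6, from 47.7 and 48.1 to 87.2 and 94.2 CPM, and COL4A5, from 167 and 169 to 222 and 239 CPM, rose, and both lie on chromosome X. Of 24 collagen genes tested 6 rose and 6 fell, near the 21.1% and 21.0% over all genes.

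Of 39 matrix glycoprotein and protease genes tested 18 fell and 13 rose (median log2 -0.13), both above the share over all genes, and 8 rose with near-identical libraries summed. At least 2-fold changes were 5 higher and 3 lower. The 5 were scarce: periostin (POSTN) rose from 0.502 and 0.319 to 1.401 and 1.88 CPM, stromelysin MMP3 from 0.251 and 0.243 to 1.11 and 1.19 CPM, nidogen 2 (NID2) from 0.335 and 0.608 to 1.03 and 1.23 CPM and decorin (DCN, chosen after its values were seen) from 0 and 0.0304 to 0.143 and 0.243 CPM. TIMP3 had no count in Scramble and stood at 0.200 and 0.187 CPM in RNF2 shRNA2. Nidogen 1 (NID1), which links laminin to collagen IV, fell from 156 and 153 to 88.0 and 91.3 CPM, 1.72-fold lower (log2 -0.78, SE 0.033, adjusted p = 2.1e-15), and SPARC, a collagen-binding glycoprotein, 1.89-fold. The metalloproteinase inhibitor TIMP2 fell from 160.3 and 164 to 92.1 and 92.7 CPM and membrane metalloproteinase MMP14 from 42.6 and 47.7 to 30.9 and 30.4 CPM, each below all other groups (MMP14 was chosen after its values were seen). Collagenase MMP13 fell from 41.0 and 40.0 to 13.7 and 14.2 CPM but was lower still with PRT4165 (1.75 and 1.15 CPM) and GW-516 (5.57 and 6.06 CPM). Tissue plasminogen activator (PLAT) fell from 79.8 and 82.8 to 40.4 and 36.8 CPM, 2.11-fold lower (log2 -1.08, SE 0.045, adjusted p = 1.8e-15), and urokinase (PLAU) from 590.2 and 600.0 to 474 and 443 CPM. The secreted protease ADAMTS1 rose from 40.8 and 40.4 to 71.7 and 72.3 CPM. HAI-1, the membrane inhibitor of matriptase and hepsin encoded by SPINT1, fell from 25.9 and 24.9 to 10.0 and 9.11 CPM, 2.67-fold lower (log2 -1.42, SE 0.06, adjusted p = 2.7e-15), and stood at 26.1 and 27.1 CPM in RNF2 shRNA1 and 40.2 and 42.5 CPM with PRT4165.

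Adhesion genes fell more often than they rose among cadherins and catenins. Of 9 cadherin and catenin genes tested 6 fell and 1 rose, the 1 call being lost without either Scramble library or RNF2 shRNA2 replicate 1. Plakoglobin (JUP), which joins both desmosomes and adherens junctions, fell from 11.6 and 11.7 to 3.86 and 3.88 CPM, 3.01-fold lower (log2 -1.59, SE 0.09, adjusted p = 4.7e-13). P-cadherin (CDH3) fell from 204 and 207 to 135 and 134 CPM, E-cadherin (CDH1) 1.38-fold and beta-catenin (CTNNB1) 1.20-fold, and these 3 and JUP were lower than in each other group. In desmosomes DSC2 fell from 77.0 and 76.9 to 37.5 and 41.0 CPM and plakophilin 1 (PKP1) from 231 and 228 to 146 and 148 CPM, while desmoplakin (DSP) rose from 25.2 and 25.1 to 38.0 and 37.2 CPM. Of tight-junction and epithelial genes, TJP3 fell from 2.89 and 3.09 to 0.658 and 0.354 CPM and EPCAM rose 1.22-fold. Of 22 integrin and laminin genes 10 fell and 4 rose, with 8 lower than in every other group. Integrin ITGAV fell from 81.7 and 81.8 to 48.6 and 55.8 CPM, laminin LAMB2 1.403-fold and LAMA4 1.37-fold, and collagen receptor ITGA2 rose from 94.9 and 95.6 to 142 and 146 CPM, although it stood at 279 and 263 and 384 and 392 CPM with the compounds. Of 11 keratin genes 6 fell and none rose, KRT81 from 25.9 and 23.8 to 12.9 and 11.4 CPM. Among regulators of epithelial-mesenchymal transition SNAI2 rose from 9.28 and 8.70 to 17.52 and 16.7 CPM and ZEB2 fell 1.47-fold.

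Epithelial defence genes, secreted antimicrobial and mucosal proteins, were lower in 9 of 15 and higher in 1 (median log2 -0.64); without replicate 2, 7 were lower. Beside LCN2 and PI3, the protease inhibitor SLPI fell from 101.2 and 101 to 56.7 and 50.5 CPM, 1.89-fold lower (log2 -0.92, SE 0.041, adjusted p = 9.6e-15), and complement C3 from 14.4 and 13.9 to 9.55 and 8.67 CPM. SLPI stood at 41.7 and 41.1 CPM in RNF2 shRNA1 and 222 and 222 CPM with GW-516, and C3 at 2.89 and 2.85 and 66.5 and 66.1 CPM in RNF2 shRNA1 and with PRT4165. MUC1 fell 1.65-fold and MUC13 rose 1.499-fold. Chemokines split. CXCL8, the neutrophil attractant interleukin 8, rose from 45.0 and 43.9 to 71.4 and 76.9 CPM, 1.67-fold higher (log2 0.74, SE 0.04, adjusted p = 2.3e-13), while CXCL16 fell from 20.9 and 20.7 to 11.5 and 10.4 CPM and CXCL1 from 36.7 and 36.8 to 22.4 and 20.1 CPM. Interleukin 1 beta (IL1B) fell from 45.7 and 48.0 to 30.5 and 31.8 CPM, against 496 and 478 CPM with PRT4165. Of 15 NF-kB genes 7 fell and 3 rose, among them ICAM1, which fell from 294 and 297 to 195 and 198 CPM, and TNFAIP3, which rose from 5.30 and 5.23 to 7.52 and 8.14 CPM.

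Growth-factor pathway genes moved in both directions. Of 9 FGF ligand-side genes tested 4 rose and 4 fell. FGF5 rose from 6.80 and 5.72 to 16.2 and 16.1 CPM, 2.57-fold higher (log2 1.36, SE 0.081, adjusted p = 1.2e-12), and FGF13, an intracellular homologue on chromosome X, from 47.6 and 49.3 to 70.5 and 66.8 CPM, while FGF2 fell from 35.5 and 36.5 to 23.2 and 24.4 CPM and the carrier FGFBP1 from 41.8 and 41.9 to 26.4 and 25.5 CPM. Of 11 feedback and effector genes of the pathway 8 rose and 1 fell. They include the inhibitors SPRY2, which rose from 26.1 and 26.5 to 40.1 and 39.1 CPM, SPRED2 (1.28-fold) and SPRY4 (1.18-fold), with ETV1, an ETS factor, the one that fell (1.23-fold). In the TGF-beta family 16 of 41 genes fell and 10 rose (9 fell without Scramble replicate 2, and 6 rose with near-identical libraries summed). Follistatin (FST), which traps activin, rose from 19.9 and 19.1 to 50.7 and 48.8 CPM, 2.55-fold higher (log2 1.35, SE 0.046, adjusted p = 4.8e-17), and its relatives FSTL1 and FSTL3 fell, FSTL1 from 559 and 562 to 323 and 315 CPM. The receptor TGFBR1 fell 1.399-fold and TGFBR2 rose 1.19-fold, and the target ID3 rose from 43.5 and 41.1 to 65.0 and 65.2 CPM. In the Wnt pathway 10 of 35 genes fell and 8 rose (5 rose with near-identical libraries summed), beside 21.0% and 21.1% over all genes. Of its 16 ligand and receptor genes 3 fell and 6 rose. The receptor gene FZD8 rose from 54.7 and 55.9 to 78.0 and 71.5 CPM, FZD4 from 45.5 and 41.0 to 56.3 and 59.6 CPM and the ligand gene WNT7B from 33.5 and 35.1 to 44.1 and 42.5 CPM. TCF7, a partner of beta-catenin, fell from 14.8 and 14.96 to 5.96 and 5.17 CPM, 2.70-fold lower (log2 -1.43, SE 0.081, adjusted p = 4.4e-13), the antagonist DKK1 fell 1.38-fold and WNT7A fell from 2.02 and 2.39 to 1.06 and 0.840 CPM. In the Notch pathway 3 of 15 genes fell and 2 rose, with a median log2 of 0.022. The target HEY1 fell from 204 and 207 to 118 and 119 CPM, 1.74-fold lower (log2 -0.80, SE 0.03, adjusted p = 2.5e-16), and the ligand JAG1 rose from 20.9 and 20.02 to 29.1 and 28.9 CPM.

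Of the mitosis and replication genes, those that passed the test were lower. Of 26 mitosis genes 15 fell and none rose (median log2 -0.14), among them NUSAP1 from 128 and 127 to 87.0 and 83.4 CPM, AURKA from 197 and 196 to 142 and 142 CPM and MKI67 from 243 and 245 to 189.6 and 184 CPM. Of 24 replication genes 9 fell and none rose, CCNE2 from 24.97 and 24.1 to 13.9 and 14.1 CPM and PCNA from 184 and 191 to 140.0 and 149.6 CPM. No gene of either list was lower than in each of the 4 other groups. MYC rose from 1018 and 1003 to 1531 and 1508 CPM, 1.503-fold higher (log2 0.59, SE 0.024, adjusted p = 9.5e-16), and stood above every other group, whose means ran from 1011 to 1216 CPM. Of 25 genes of the integrated stress response 19 rose and 2 fell, and of 23 sterol genes 16 rose and 3 fell (1 fell without either Scramble library or RNF2 shRNA2 replicate 1). Of the 25 stress genes 2, and of the 23 sterol genes 1, were higher than in each of the 4 other groups. Over all genes this share was 8.19%. Of 13 protein-coding genes of the mitochondrial chromosome 8 rose and none fell, beside mitochondrial shares of counts of 2.47% and 2.51% in Scramble and 2.76% and 2.65% in RNF2 shRNA2. The part of these shares in the 8 calls was not tested.

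**Figure D5:**
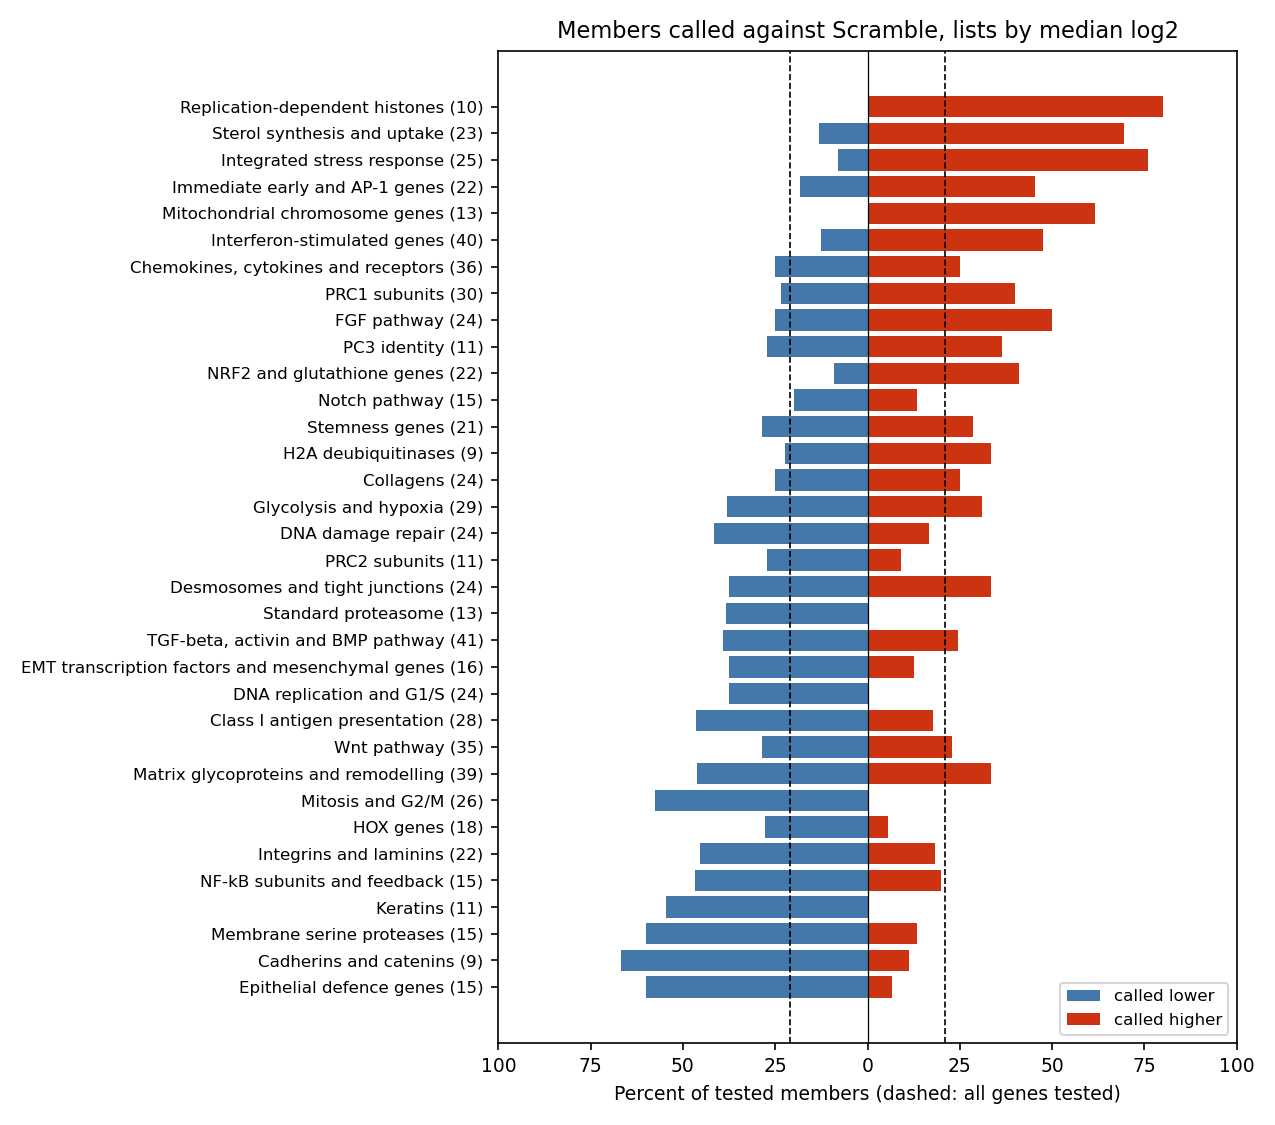
Percent of tested members of each gene list called lower (left) and higher (right) in RNF2 shRNA2 against Scramble, ordered by the list's median log2, with the number tested in brackets. Dashed lines mark 21.0% lower and 21.1% higher over all 18478 genes, and epithelial defence genes are the list with the lowest median, at -0.64.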

How the data were processed

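Stranded paired-end mRNA libraries were counted per gene by the authors. The deposited values are raw counts, not normalized, made with featureCounts 1.4.3-p1 on GENCODE 18 genes, per the file headers, and the submitters' processing notes name STAR, hg19 and DESeq2 1.8.1. Replicates were not pooled. Each group has 2 libraries, of 65877850 to 108380198 counts. Symbols and gene types were joined by identifier, 39410 of 57445 identifiers having a symbol.

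The counts were fitted with edgeR 4.0.16 (R 4.3.3) over all 10 libraries with 1 coefficient per group, TMM scaling, filterByExpr at a minimum count of 10, robust quasi-likelihood and Benjamini-Hochberg adjustment over 18478 genes. Genes were called at an adjusted p below 0.05, and every adjusted p of the report is from this fit unless a left-out library is named. SE and 95% intervals are on the log2 scale, with 5 residual degrees of freedom before moderation. The scripts were tested on simulated data. The fit was repeated with DESeq2 1.42.0, with limma-voom 3.58.1, with RLE scaling, with other filters on low counts, with the 4 libraries alone, with a replicate block, with near-identical libraries summed, without each library in turn and, chosen after seeing the data, with RNF2 shRNA2 replicate 2 thinned.

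Named genes were RNF2, RING1, BMI1, TMPRSS15, PSMB9, EZH2, CDKN2A and CDKN1A, the members of PRC1, PRC2 and H2A deubiquitinase lists, and the 15 largest changes each way among called genes with a symbol, at least 5 CPM in a group and groups that did not overlap. For the other lists they were at most 6 called members each way by adjusted p and any member of a sub-list of 12 or fewer. The members and lists were chosen with earlier results of these data known. A few members of the lists are not reported here.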

Additional observations from a re-analysis of the deposited data

How the results depend on the processing

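The directions of BMI1 and RNF2 and the sides of the threshold they fell on held under all 13 alternatives, and leaving out 1 library moved the log2 of BMI1 between -2.27 and -2.04 and that of RNF2 between 0.17 and 0.28. Leaving out 1 library gave 2872 to 3824 genes higher, 2958 to 3967 lower, 247 to 416 at least 2-fold higher and 529 to 669 at least 2-fold lower. Keeping only genes at 1 CPM in 2 libraries gave 105 at least 2-fold higher and 374 at least 2-fold lower, since scarcer genes were not tested. Summing near-identical libraries gave 2206 genes higher and 187 at least 2-fold higher, with fewer libraries in the fit. Of 78 counts of list members called in 1 direction, 21 moved by over 1.5 times with near-identical libraries summed, 11 and 10 without Scramble replicate 1 or 2, 7 and 6 without RNF2 shRNA2 replicate 1 or 2, and 0 under the block. With the replicate number as a block, 3825 genes were higher and 3805 lower. The correlations of same-numbered libraries' deviations ran from -0.088 to 0.016. They cannot decide whether same-numbered libraries were paired, since the Scramble, RNF2 shRNA1 and GW-516 pairs differed by little more than sampling noise. With counts halved, their chi-squares divided by degrees of freedom were 1.08, 1.09 and 1.10. Of 178 genes named with a test, 169 were called, no called gene reversed, and 16 lost the call under at least 1 alternative: PCGF1, PHC2, SCML1, RYBP, YAF2, JARID2, USP3, USP22, HOXB9, HLA-G, TAPBP, ISG15, COL6A3, SCG2, DCN and VWF. ISG15 lost it under the block (adjusted p = 0.059). B2M was called lower without RNF2 shRNA2 replicate 1 (log2 -0.066, adjusted p = 0.035).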
